A study of Mus musculus with 12 samples.

Results

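Retnla, Ccl8, Cd209f and Prg2 are grouped here under the name type 2 macrophage and eosinophil genes. Their levels were followed across every library of a mouse aorta mRNA sequencing study. The 4 genes were taken by symbol from a deposited table of 3534 rows per library. Their values in these libraries were already known, so their levels are described without a test. All 4 passed the filter on low values, 1 FPKM (a read level scaled by transcript length and library depth) or more in at least 3 libraries, as did 1659 genes of the table. Retnla and Ccl8 reached 1 FPKM in all 11 libraries, Cd209f in 5 and Prg2 in 6.

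The 4 groups of aorta were HSAPN (high-fat diet, genotype given as APPL1 knockdown), HAPN (high-fat diet, WT genotype), HFD (high-fat diet, WT genotype) and WT (standard diet, WT genotype), with 3 files each. The high-fat diet, shared by HSAPN, HAPN and HFD, had 60% of its energy as fat and ran for 12 weeks per the labels. What the titles HAPN and HSAPN stand for, what set HAPN apart from HFD, how and in which cells APPL1 was knocked down, and the strain, age and sex of the mice were not stated in the labels. Appl1 itself was not analysed here, so the knockdown could not be checked. The files of HFD replicates 1 and 2 hold identical values and were counted as 1 library, which leaves 11 distinct libraries and 2 in the HFD group. Whether the replicates are different animals is not stated, and p-values given for other genes therefore measure only the spread between these samples.

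Type 2 immunity is driven by the cytokines IL-4, IL-13 and IL-5, with IL-33 as an upstream alarm signal released from stromal and endothelial cells. IL-4 and IL-13 act through the transcription factor STAT6 and, in mouse macrophages, induce genes such as Retnla and Arg1, while IL-5 sustains eosinophils. In the artery wall, macrophages sit mainly in the adventitia and the surrounding fat. Retnla encodes RELM-alpha, a secreted cysteine-rich protein of alternatively activated macrophages. Ccl8 encodes a CC chemokine that in mouse acts on the receptor Ccr8. Cd209f encodes a C-type lectin receptor of the CD209 family, which is expanded in mouse, and Prg2 encodes the major basic protein of eosinophil granules.

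In GRCm38 (GENCODE M21), Retnla (ENSMUSG00000061100) lies at chr16:48842551-48844461 on the plus strand. Ccl8 (ENSMUSG00000009185) lies at chr11:82115185-82116799 on the plus strand, in the CC chemokine cluster that also holds Ccl11. Cd209f (ENSMUSG00000051906) lies at chr8:4102787-4105835 on the minus strand, near its relatives Cd209b, Cd209d and Cd209g, and reads shared between these related sequences would make its values uncertain. Prg2 (ENSMUSG00000027073) lies at chr2:84980461-84983632 on the plus strand.

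The promoters of Retnla, Ccl8 and Cd209f are shown because Retnla is a textbook STAT6 target whose start region can be set beside those of the other genes. They run from 250 bases before to 50 bases after the RefSeq start site (GRCm38.p6), at chr16:48842359-48842658 on the plus strand, chr11:82114935-82115234 on the plus strand and chr8:4105715-4106014 on the minus strand. Capitals mark the letters TATAAA and, in Retnla, a match to the STAT6-type element, TTC and GAA with 4 bases between them, a spacing that STAT6 is known to bind.
Retnla: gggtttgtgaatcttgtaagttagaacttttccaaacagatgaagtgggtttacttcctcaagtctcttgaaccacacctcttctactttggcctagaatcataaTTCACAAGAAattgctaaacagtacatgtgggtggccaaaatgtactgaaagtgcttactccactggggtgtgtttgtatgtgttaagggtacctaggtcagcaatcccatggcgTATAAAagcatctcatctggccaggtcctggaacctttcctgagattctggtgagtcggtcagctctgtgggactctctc
Ccl8: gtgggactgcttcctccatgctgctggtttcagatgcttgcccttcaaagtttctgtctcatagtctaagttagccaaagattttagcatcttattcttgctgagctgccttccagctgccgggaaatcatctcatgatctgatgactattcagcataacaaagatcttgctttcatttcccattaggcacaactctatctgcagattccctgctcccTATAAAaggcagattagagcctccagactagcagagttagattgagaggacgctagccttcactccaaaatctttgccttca
Cd209f: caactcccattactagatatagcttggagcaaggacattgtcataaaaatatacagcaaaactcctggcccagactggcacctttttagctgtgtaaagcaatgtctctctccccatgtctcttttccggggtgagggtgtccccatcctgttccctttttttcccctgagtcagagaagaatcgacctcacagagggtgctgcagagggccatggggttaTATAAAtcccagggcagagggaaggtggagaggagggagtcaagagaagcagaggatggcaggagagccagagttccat
TATAAA began at position −30 from the start site in Retnla, −32 in Ccl8 and −29 in Cd209f, and 13.6% of 32851 promoters of this length hold it on either strand. Of the 3, the STAT6-type element was found in Retnla alone, as TTCACAAGAA beginning at position −145, and 6.95% of all promoters hold it. Neither TTCNNNGAA (8.30% of promoters), the spacing of other STAT factors, nor the interferon-response type of element (GAAA repeated after 2 bases, 3.44%) was found in the 3 sequences. These matches describe letters in a window and do not show binding.

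The 4 genes differed widely in level and did not vary as one group. Retnla had a mean level above that of 99.1% of tested genes, whereas the mean level of Ccl8 was above 75.3%, that of Prg2 above 31.6% and that of Cd209f above 17.2%. The highest library exceeded the lowest 20.5-fold for Retnla, 11.2-fold for Ccl8, 10.2-fold for Cd209f and 16.8-fold for Prg2. Over the 11 libraries, Pearson r of log2(FPKM + 1) was 0.52 between Retnla and Ccl8, −0.43 between Retnla and Cd209f, and −0.50 between Retnla and Prg2. It was −0.57 between Ccl8 and Cd209f, −0.11 between Ccl8 and Prg2, and 0.05 between Cd209f and Prg2. These points share the 4 groups and the tissue mix of each library, and are given as a description.

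**Figure D1:**
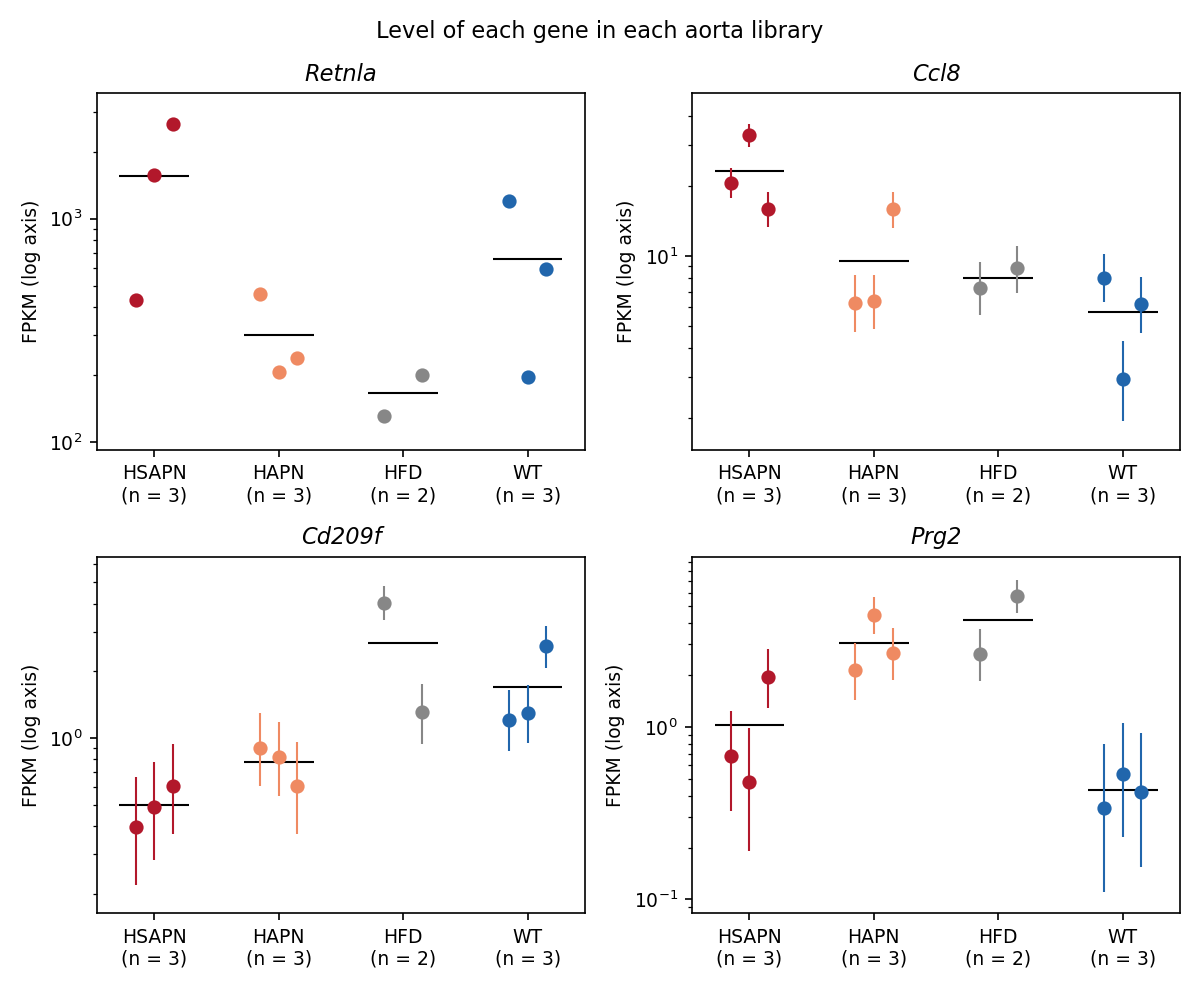
FPKM (log axis) of Retnla, Ccl8, Cd209f and Prg2 in each library of HSAPN, HAPN, HFD and WT aorta, with 1 point per library, a black line at the group mean and a vertical line for the exact 95% Poisson interval, which covers counting error only. Retnla and Ccl8 are highest in an HSAPN library (2665 and 33.0 FPKM), and Cd209f and Prg2 in an HFD library (4.05 and 5.74 FPKM).

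Retnla was the most abundant of the 4 and the most uneven between replicates. It had 430.6, 1570.0 and 2665 FPKM in HSAPN libraries, 460.4, 205.8 and 237.9 FPKM in HAPN, 130.1 and 200.1 FPKM in HFD, and 1197, 195.4 and 593.4 FPKM in WT. HSAPN replicates 2 and 3 stood above every other library, but HSAPN replicate 1 lay within the HAPN and WT ranges. Group means were 1555 ± 1117 FPKM in HSAPN, 301 ± 139 in HAPN, 165 ± 49.5 in HFD and 662 ± 504 in WT (SD, n = 3, 3, 2 and 3). On the log2(FPKM + 1) scale, the mean difference was 2.10 for HSAPN minus HAPN, 2.91 for HSAPN minus HFD and 1.23 for HSAPN minus WT. The HSAPN range overlapped those of HAPN and WT and did not overlap that of HFD. HAPN stood 0.80 above HFD on that scale, separated by only 5.67 FPKM between the nearest libraries (205.8 in HAPN replicate 2 and 200.1 in HFD replicate 3). Relative to WT, the log2 difference was −0.87 in HAPN and −1.68 in HFD, and both ranges overlapped that of WT. With 1233 to 26451 reads per library behind the gene, counting error was small beside this spread between replicates. In order of the group means, HSAPN came first, then WT, HAPN and HFD, and among neighbours in that order HSAPN and WT overlapped, as did WT and HAPN.

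Ccl8 was the gene with the most even separation of HSAPN from the other groups. It had 20.6, 33.0 and 15.9 FPKM in HSAPN libraries, 6.27, 6.37 and 15.8 FPKM in HAPN, 7.26 and 8.82 FPKM in HFD, and 8.05, 2.95 and 6.22 FPKM in WT. Every HSAPN library was above every other library, although HSAPN replicate 3 exceeded HAPN replicate 3 by only 0.0693 FPKM, less than counting error. Means were 23.2 ± 8.84 FPKM in HSAPN, 9.50 ± 5.50 in HAPN, 8.04 ± 1.11 in HFD and 5.74 ± 2.58 in WT (SD, n = 3, 3, 2 and 3). HSAPN was 2.44-fold higher than HAPN, 2.88-fold higher than HFD and 4.04-fold higher than WT, or 1.26, 1.36 and 1.86 on the log2(FPKM + 1) scale. HAPN, HFD and WT overlapped one another. The log2 difference was 0.10 for HAPN minus HFD, 0.60 for HAPN minus WT and 0.50 for HFD minus WT, and the first of these turned to −0.30 without HAPN replicate 3. Reads ranged from 27 to 296 per library.

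Cd209f, the lectin receptor, was scarce and ran the other way, with its lowest levels in HSAPN. It had 0.399, 0.487 and 0.606 FPKM in HSAPN libraries, 0.899, 0.819 and 0.609 FPKM in HAPN, 4.05 and 1.30 FPKM in HFD, and 1.21, 1.29 and 2.57 FPKM in WT. Each HFD and WT library was above each HSAPN and HAPN library. Means were 0.497 ± 0.104 FPKM in HSAPN, 0.776 ± 0.150 in HAPN, 2.67 ± 1.94 in HFD and 1.69 ± 0.765 in WT (SD, n = 3, 3, 2 and 3). The mean was 1.56-fold lower in HSAPN than in HAPN, 5.38-fold lower than in HFD and 3.40-fold lower than in WT. On the log2(FPKM + 1) scale, which understates changes of low genes, these differences were −0.24, −1.19 and −0.81. HSAPN and HAPN were separated by 0.0033 FPKM, far within counting error. HAPN minus HFD was −0.94 and HAPN minus WT was −0.57 on that scale. HFD minus WT was 0.38 with overlapping ranges, and −0.19 when the HFD library of replicates 1 and 2 was left out. The values rest on 14 to 20 reads per library in HSAPN, 19 to 29 in HAPN, 43 to 127 in HFD and 42 to 87 in WT.

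Prg2, the eosinophil granule gene, was lowest on the standard diet. It had 0.676, 0.476 and 1.94 FPKM in HSAPN libraries, 2.13, 4.42 and 2.66 FPKM in HAPN, 2.63 and 5.74 FPKM in HFD, and 0.341, 0.534 and 0.421 FPKM in WT. All HAPN and HFD libraries were above all HSAPN and WT libraries, and HSAPN overlapped WT. Means were 1.03 ± 0.794 FPKM in HSAPN, 3.07 ± 1.20 in HAPN, 4.18 ± 2.20 in HFD and 0.432 ± 0.0969 in WT (SD, n = 3, 3, 2 and 3). Relative to WT, the mean was 2.39-fold higher in HSAPN, 7.11-fold higher in HAPN and 9.68-fold higher in HFD, with log2(FPKM + 1) differences of 0.44, 1.47 and 1.79. Relative to HAPN and HFD, HSAPN was 2.98-fold and 4.06-fold lower, with log2 differences of −1.03 and −1.35. The highest HSAPN library (1.94 FPKM) and the lowest HAPN library (2.13 FPKM) were 0.192 FPKM apart, within counting error. HAPN minus HFD was −0.32 with overlapping ranges, and 0.13 without HFD replicate 3. WT libraries held 5 to 8 reads each, against 7 to 27 in HSAPN, 29 to 66 in HAPN and 35 to 80 in HFD, so single WT values are imprecise. In bulk tissue, fewer cells of a type and less RNA per cell cannot be told apart.

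Counted over the 4 genes, the groups did not overlap for 3 genes in HSAPN against HAPN, where 17.5% of all tested genes did not overlap in either direction. For HSAPN against HFD the count was 4 genes (19.8% of tested genes), and for HSAPN against WT it was 2 genes (29.4%). It was 2 genes for HAPN against HFD (26.3%), 2 genes for HAPN against WT (27.5%) and 1 gene for HFD against WT (19.3%). The genes were chosen on these values, so nothing is read from the counts. Comparisons that share a group also share its libraries. Pooling the 8 high-fat libraries, Prg2 ranged from 0.476 to 5.74 FPKM (median 2.38), against 0.341 to 0.534 FPKM in WT. Ccl8 ranged from 6.27 to 33.0 FPKM (median 12.3) in high-fat libraries, against 2.95 to 8.05 FPKM in WT. The high-fat range overlapped that of WT for both genes.

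**Figure D2:**
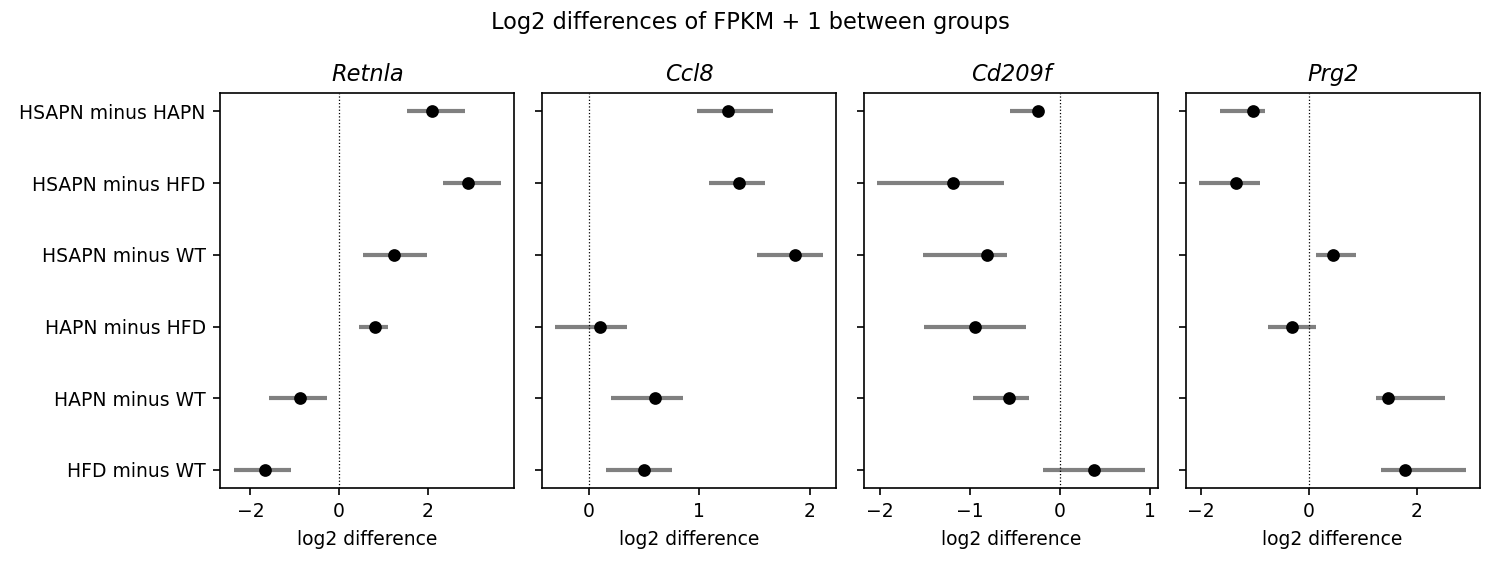
Difference of mean log2(FPKM + 1) between groups for each gene in the 6 comparisons of 2 groups (black points), with the lowest and highest value over the alternative settings as a grey line; the dotted line marks 0. The lines of HSAPN minus HAPN, HSAPN minus HFD and HSAPN minus WT stay above 0 for Retnla and Ccl8 and below 0 for Cd209f, and cross 0 for Ccl8 and Prg2 in HAPN minus HFD and for Cd209f in HFD minus WT.

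The name given to these genes could be checked only in part. Of 16 type 2 macrophage genes listed, 5 were analysed: Retnla, Clec10a, Arg1, Alox15 and Ccl24. Of 9 eosinophil genes listed, Prg2 was the single one analysed, so no second eosinophil gene stands beside it. General macrophage genes were detected in all libraries: C1qb, a complement subunit made by macrophages, had 18.5 to 63.9 FPKM, and Adgre1, which encodes the macrophage antigen F4/80, had 1.67 to 14.5 FPKM. Over the 11 libraries, Pearson r to C1qb was −0.18 for Retnla, 0.38 for Ccl8, 0.30 for Cd209f and −0.04 for Prg2. To Adgre1 it was −0.12, 0.48, 0.27 and 0.17 in the same order. For Cd209f, Spearman rho was −0.01 to C1qb and −0.25 to Adgre1. Mast cell and basophil genes, 6 of 11 listed, summed to 3.52 to 5.26 FPKM in HSAPN, 2.53 to 5.51 in HAPN, 5.59 to 12.6 in HFD and 1.45 to 10.2 in WT, with the mast cell tryptases Tpsb2 and Tpsab1 each at 0 in at least 1 library. Dendritic cell, B cell and endothelial lists were not analysed here.

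Related genes outside the 4 were tested with limma on log2(FPKM + 1) over all 1659 genes, with Benjamini-Hochberg adjustment. Beside the 4, 19 tested genes belonged to the lists of type 2, resident and general macrophage, eosinophil, type 2 signalling, CC chemokine, CD209 and resistin genes. None of the 19 was called in any of the 7 comparisons. Among all tested genes the share called was 0.121% in HSAPN against HAPN, 0% in HSAPN against HFD, 0% in HSAPN against WT, 0.181% in HAPN against HFD, 0% in HAPN against WT, 0% in HFD against WT and 0.0603% in all high-fat groups against WT. At an unadjusted p under 0.05, 1, 1, 4, 2, 1, 2 and 2 of the 19 genes passed in those comparisons, in the same order, and limma-voom called 0 of 19 in each. Of all 1659 genes, 130, 67, 360, 143, 368, 189 and 392 passed that unadjusted threshold in the same comparisons. Without WT replicate 3, Il33 and Ccl6 passed the threshold in HSAPN against WT and in high-fat against WT, and Il33 in HAPN against WT. In that setting 17 of the 19 genes were among 1617 tested, and 164, 240 and 177 genes in all were called in these 3 comparisons. The hemoglobin gene Hba-a1 had 1198 FPKM in WT replicate 3 and 137 and 153 FPKM in the other WT libraries. High-fat libraries had 602 to 1941 FPKM of Hba-a1, a range that holds WT replicate 3 and not the other WT libraries. The part of blood in these calls was not tested.

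Of the other type 2 macrophage genes, Arg1, an arginine-degrading enzyme induced by IL-4, had 1.02, 1.84 and 2.19 FPKM in HSAPN, 1.38, 2.19 and 1.43 FPKM in HAPN, 0.677 and 0.378 FPKM in HFD, and 0.487, 0.477 and 2.90 FPKM in WT. Its HSAPN and HAPN libraries were above both HFD libraries, and the log2 difference of HSAPN minus HFD was 0.79 ± 0.41 (SE, limma adjusted p = 0.886). Alox15, a lipoxygenase induced by IL-4, had 1.18, 1.09 and 3.19 FPKM in HSAPN, 0.301, 3.55 and 0.338 FPKM in HAPN, 61.7 and 0.294 FPKM in HFD, and 0.349, 29.3 and 7.65 FPKM in WT. Its HSAPN minus HFD difference was −1.75 ± 1.60 (SE, limma adjusted p = 0.886), and its HFD value rests on 1 high library. Ccl24, the chemokine eotaxin-2, was below the filter and ran against Arg1: it had 0.219 to 0.528 FPKM in HSAPN and 0.130 to 0.394 FPKM in HAPN, below the 2.18 and 0.882 FPKM of HFD, and 0.432 to 0.908 FPKM in WT. Clec10a, a galactose-binding lectin of macrophages and dendritic cells, ranged from 2.22 to 3.46 FPKM in HSAPN, 2.13 to 3.78 in HAPN, 2.05 to 6.18 in HFD and 3.76 to 4.24 in WT. The 3 tested genes of this list other than Retnla had a median log2 difference of −0.44 in HSAPN minus WT, against −0.12 over all tested genes, of −0.34 in HSAPN minus HFD, against −0.18, and of −0.01 in HSAPN minus HAPN, against 0.03, with 1 of 3 above 0 in each. Retnla itself differed by 1.23, 2.91 and 2.10 in these comparisons.

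Il33, the alarm cytokine of type 2 responses and the single tested gene of the type 2 signalling list, had 13.2, 41.2 and 37.2 FPKM in HSAPN, 14.9, 30.0 and 18.4 FPKM in HAPN, 18.2 and 17.2 FPKM in HFD, and 4.36, 4.36 and 23.2 FPKM in WT. WT replicates 1 and 2 were below all other libraries, while WT replicate 3 lay inside the high-fat range. HSAPN minus WT was 1.68 ± 0.62 (SE) on the log2 scale, with a limma adjusted p of 0.171, and 0.0234 without WT replicate 3. For HAPN minus WT the difference was 1.26 ± 0.62, with an adjusted p of 0.248, and 0.036 without that library.

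Among CC chemokines, Ccl6, made by myeloid cells in mouse, varied with Ccl8 over the 11 libraries (r = 0.77, rho = 0.67). It had 86.0, 87.5 and 96.1 FPKM in HSAPN, 19.2, 27.5 and 60.2 FPKM in HAPN, 97.3 and 49.2 FPKM in HFD, and 18.6, 9.50 and 42.1 FPKM in WT. HSAPN libraries were above all HAPN and WT libraries and overlapped HFD. The log2 difference was 1.47 ± 0.54 for HSAPN minus HAPN (SE, limma adjusted p = 0.519) and 2.13 ± 0.54 for HSAPN minus WT (adjusted p = 0.168, and 0.0198 without WT replicate 3). Ccl11, the eosinophil chemoattractant eotaxin-1, averaged 2.98 ± 0.183 FPKM in HSAPN, 2.26 ± 0.718 in HAPN, 3.91 ± 0.967 in HFD and 4.24 ± 0.777 in WT (SD). Its HAPN minus WT difference was −0.70 ± 0.21 on the log2 scale (SE, limma adjusted p = 0.142), where the Prg2 difference was 1.47. The 6 tested CC chemokines other than Ccl8 had a median log2 difference of 1.13 in HSAPN minus WT, against −0.12 over all tested genes, with 5 of 6 above 0 and none called. Their median was 0.73 in HAPN minus WT (−0.17 over all tested genes) and 0.56 in HFD minus WT (0.07). In each of these, 5 of 6 were above 0. Between high-fat groups it was 0.25 in HSAPN minus HAPN (4 of 6 above 0), 0.36 in HSAPN minus HFD (5 of 6) and −0.19 in HAPN minus HFD (3 of 6). Markers of other cells moved in HSAPN minus WT: the median was 2.15 over 6 erythrocyte genes (6 above 0), 0.94 over 8 platelet genes (8 above 0) and −1.46 over 7 smooth muscle genes (0 above 0). The 6 analysed erythrocyte genes of 8 listed summed to 3156 to 4867 FPKM in HSAPN, 1298 to 3889 in HAPN, 2187 to 3822 in HFD and 399 to 3191 in WT. Platelet genes, 8 of 8, summed to 107 to 165 FPKM in HSAPN, 79.5 to 179.99 in HAPN, 127 to 445 in HFD and 56.7 to 83.4 in WT, and smooth muscle genes, 8 of 8, to 309 to 517 FPKM in HSAPN, 292 to 546 in HAPN, 249 to 903 in HFD and 703 to 2872 in WT. Ccl8 itself had r = −0.67 to the smooth muscle actin gene Acta2 and 0.55 to Hba-a1, and the part of these markers in the chemokine differences was not tested.

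Among resident macrophage genes, Pf4, Cd163, Timd4 and Fcna were highest in the HFD library of replicates 1 and 2, and F13a1 in HSAPN replicate 1. Fcna, which encodes the macrophage lectin ficolin A, had 0.247, 0.249 and 0.263 FPKM in HSAPN, 0.179, 0.735 and 0.139 FPKM in HAPN, 9.11 and 0.131 FPKM in HFD, and 0.707, 1.06 and 2.10 FPKM in WT. Timd4, a phosphatidylserine receptor of resident macrophages, had 0.677, 0.341 and 0.832 FPKM in HSAPN, 0.454, 0.594 and 0.557 FPKM in HAPN, 4.05 and 0.636 FPKM in HFD, and 0.868, 1.67 and 2.41 FPKM in WT. In both genes, the library of HFD replicates 1 and 2 was the highest of all and each WT library exceeded each HSAPN library. With all libraries, the Fcna log2 difference was −1.43 in HSAPN minus HFD and −1.35 in HAPN minus HFD (limma adjusted p = 0.886 and 0.542). When HFD replicate 3 was left out, these differences were −3.01 and −2.93. HFD is then the single library of replicates 1 and 2, so no p-value is given for that setting. There, HFD minus WT was 2.19 for Fcna and 1.90 for Pf4, a platelet chemokine also made by resident macrophages. With all libraries, the 8 platelet genes, Pf4 among them, had a median log2 difference of 1.56 in HFD minus WT, with 8 above 0. Retn, which encodes resistin and is the only other resistin-family gene tested, averaged 1.01 ± 0.831 FPKM in HSAPN, 1.98 ± 2.08 in HAPN, 14.8 ± 20.6 in HFD and 9.62 ± 9.95 in WT (SD). Its order of means, lowest in HSAPN, was unlike that of Retnla. The CD209 relatives Cd209b, Cd209d and Cd209g were below the filter, and Cd209b averaged 0.207 ± 0.118 FPKM in HSAPN, 0.207 ± 0.0760 in HAPN, 1.05 ± 0.403 in HFD and 0.785 ± 1.15 in WT (SD). Cd209d had its lowest mean in WT, with 0.593 ± 0.227 FPKM in HSAPN, 0.817 ± 0.628 in HAPN, 1.01 ± 0.694 in HFD and 0.422 ± 0.368 in WT, and Cd209g averaged 0.113 ± 0.0195 FPKM in HSAPN, 0.141 ± 0.0861 in HAPN, 0.613 ± 0.561 in HFD and 0.229 ± 0.108 in WT.

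**Figure D3:**
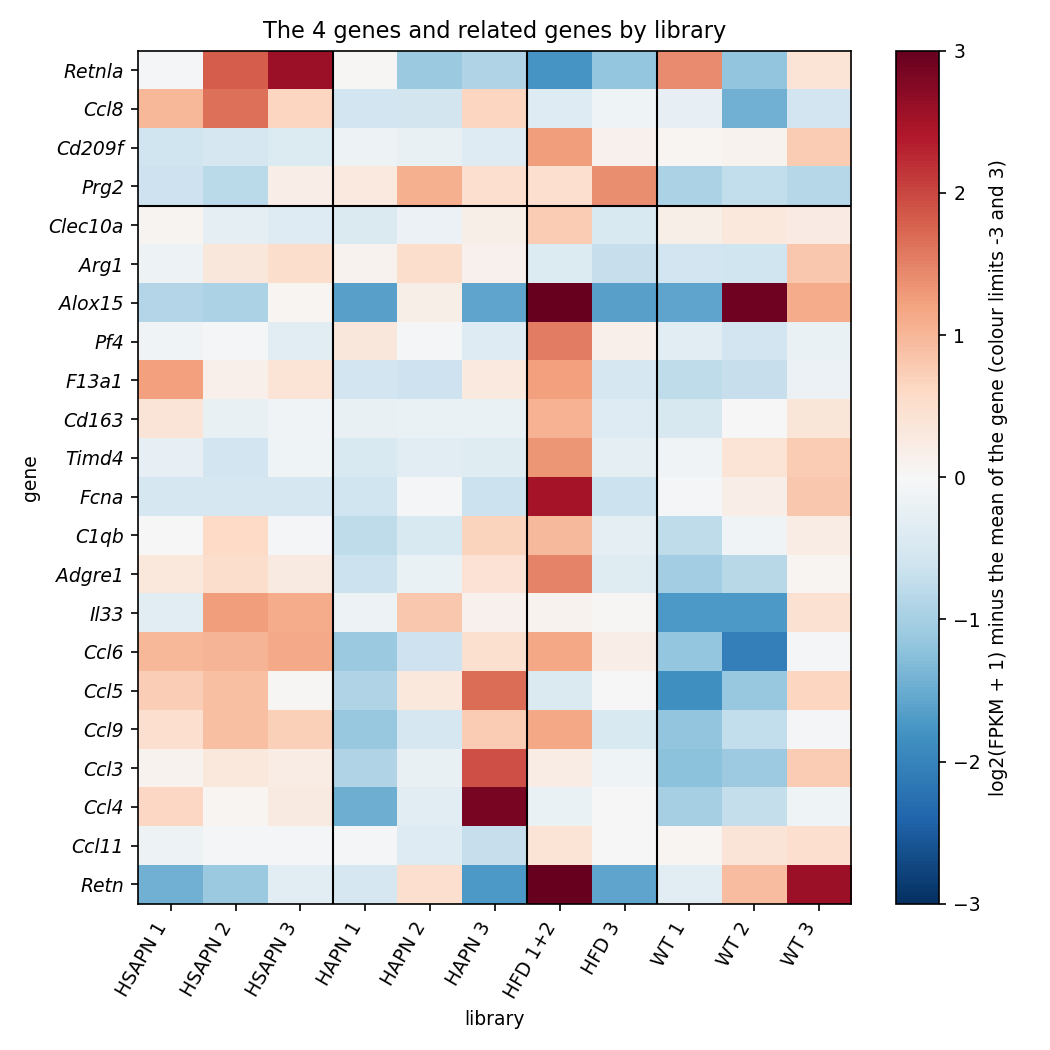
Level of the 4 genes (above the black line) and of related tested genes in each library, as log2(FPKM + 1) minus the mean of the gene over 11 libraries, with colours limited to −3 and 3. Red marks a level above the mean of the gene and blue one below it; the library of HFD replicates 1 and 2 (HFD 1+2) is red for most resident macrophage genes, Fcna and Timd4 among them, and the HSAPN libraries are red for Ccl8 and Ccl6.

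Set against a general macrophage gene, a scaling chosen after the values were seen, the separation of Ccl8 in HSAPN was kept with C1qb and not with Adgre1. The ratio of Ccl8 to C1qb FPKM was 0.654, 0.672 and 0.521 in HSAPN, 0.340, 0.274 and 0.306 in HAPN, 0.114 and 0.341 in HFD, and 0.436, 0.0996 and 0.165 in WT. All HSAPN ratios were above all others, with 0.436 in WT replicate 1 as the nearest. With Adgre1 in place of C1qb the ratio was 3.49, 4.72 and 2.84 in HSAPN, and WT replicate 1, at 4.81, overlapped it. The ratio of Cd209f to C1qb was 0.0126, 0.00992 and 0.0198 in HSAPN, 0.0487, 0.0353 and 0.0117 in HAPN, 0.0634 and 0.0503 in HFD, and 0.0653, 0.0436 and 0.0682 in WT. HSAPN remained below HFD and WT on this ratio and overlapped HAPN. With Adgre1 the Cd209f ratio was 0.0676 to 0.108 in HSAPN, 0.0940 to 0.359 in HAPN, 0.280 and 0.392 in HFD, and 0.542 to 0.722 in WT. HSAPN was again below HFD and WT, but WT was then above HFD without overlap. Retnla relative to C1qb averaged 44.3 ± 38.3 in HSAPN, 12.8 ± 10.7 in HAPN, 4.89 ± 4.03 in HFD and 29.0 ± 31.3 in WT, with HSAPN overlapping HAPN and WT. Relative to Adgre1 the highest mean was in WT instead: Retnla averaged 258 ± 203 in HSAPN, 91.6 ± 80.2 in HAPN, 34.7 ± 36.3 in HFD and 311 ± 350 in WT (SD). Prg2 relative to C1qb was 0.0214, 0.00969 and 0.0635 in HSAPN, 0.115, 0.190 and 0.0513 in HAPN, 0.0411 and 0.222 in HFD, and 0.0184, 0.0180 and 0.0112 in WT. HAPN and HFD ratios to C1qb stayed above all WT ratios, and HSAPN overlapped all 3 other groups. With Adgre1 the Prg2 separation from WT did not hold for HFD: the ratio was 0.411 to 1.17 in HAPN, 0.182 and 1.73 in HFD, and 0.0887 to 0.256 in WT.

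**Figure D4:**
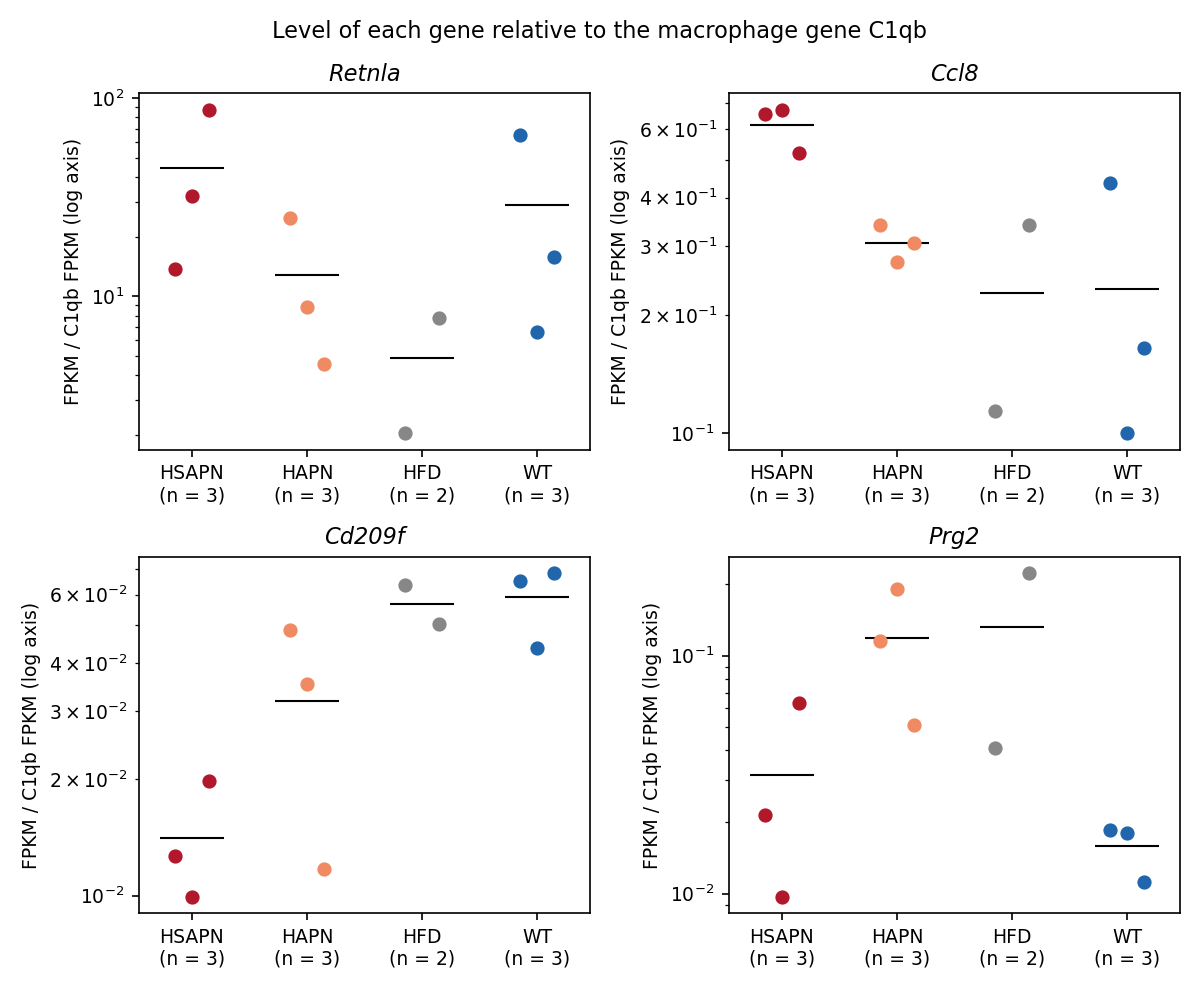
FPKM of each gene divided by the FPKM of the macrophage gene C1qb in the same library (log axis), with 1 point per library and a black line at the group mean for HSAPN, HAPN, HFD and WT. The 3 HSAPN ratios of Ccl8 (0.521 to 0.672) are above those of the other libraries, whose highest is 0.436 in WT.

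For each of the 4 genes, the tested genes with the highest Pearson r of log2(FPKM + 1) over the 11 libraries were listed, from 1363 eligible genes. The points share groups, depth and tissue mix, and the values are descriptions. Ccl8 was nearest to Tgtp1 (r = 0.83, rho = 0.74), Iigp1 (r = 0.81, rho = 0.65), Apol7c (r = 0.80, rho = 0.71), Ube2l6 (r = 0.79, rho = 0.85) and Crybg1 (r = 0.78, rho = 0.59). Tgtp1 and Iigp1 are interferon-inducible GTPases and Ube2l6 is the conjugating enzyme of the ubiquitin-like protein ISG15. Tgtp1 had 2.58, 5.64 and 1.48 FPKM in HSAPN and 0.846, 1.14 and 5.63 FPKM in HAPN, so that its high libraries included HSAPN replicate 2 and HAPN replicate 3, the highest of their groups for Ccl8. Cxcl10, an interferon-induced chemokine chosen after its values were seen, had r = 0.71 to Ccl8.

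Cd209f was nearest to Rbp7, a retinol-binding protein (r = 0.96, rho = 0.85), Coq5, an enzyme of ubiquinone synthesis (r = 0.92, rho = 0.84), Timd4 (r = 0.91, rho = 0.65), Fcna (r = 0.90, rho = 0.48) and the fatty acid transporter Slc27a1 (r = 0.90, rho = 0.81). Adipocyte markers, all 9 of which were analysed, moved with it in part: they summed to 33.2 to 122 FPKM in HSAPN, 16.5 to 282 in HAPN, 17.9 to 1384 in HFD and 107 to 898 in WT, with Lep at 0 in at least 1 library of HSAPN, HFD and WT. Adipoq, the adipocyte hormone adiponectin, had 0.533, 2.27 and 4.06 FPKM in HSAPN, 3.39, 15.8 and 0.0923 FPKM in HAPN, 92.6 and 0.174 FPKM in HFD, and 2.44, 9.44 and 53.8 FPKM in WT (r = 0.79 and rho = 0.54 to Cd209f). The library of HFD replicates 1 and 2 was the highest for both Adipoq and Cd209f (92.6 and 4.05 FPKM). WT replicate 3 was high for both (53.8 and 2.57 FPKM), and HAPN replicate 3 low for both (0.0923 and 0.609 FPKM). HFD replicate 3, with Adipoq at 0.174 FPKM, had more Cd209f (1.30 FPKM) than HAPN replicate 2, with Adipoq at 15.8 FPKM (0.819 FPKM of Cd209f). The part of fat tissue in the Cd209f differences was not tested.

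Retnla was nearest to Muc5ac (r = 0.69, rho = 0.58), Npc2 (r = 0.67, rho = 0.73), Ldlrad3 (r = 0.61, rho = 0.51), Pter (r = 0.61, rho = 0.49) and Nr1d2 (r = 0.60, rho = 0.45). Muc5ac, a gel-forming mucin, had 12.96 FPKM in HSAPN replicate 3, the library with the most Retnla, and at most 1.37 FPKM elsewhere. Npc2, a lysosomal cholesterol-binding protein, stayed between 139.6 and 267 FPKM. Bpifa1, an airway secretory gene and the single airway marker of 10 analysed, ranged from 27.9 to 1149 FPKM in HSAPN, 2.81 to 3848 in HAPN, 5.84 to 6438 in HFD and 238 to 10735 in WT, with r = −0.10 to Retnla. WT replicate 2 had the most Bpifa1 and 195.4 FPKM of Retnla. The part of airway tissue in the Retnla differences was not tested.

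Prg2 was nearest, under the same rule, to G0s2, an inhibitor of the lipase ATGL (r = 0.71, rho = 0.62), Tmem59l (r = 0.69, rho = 0.61), Begain (r = 0.67, rho = 0.82), Slc26a10 (r = 0.67, rho = 0.61) and Edn1, which encodes endothelin-1 (r = 0.67, rho = 0.64). Antibody genes were not eligible, and Ighg1, the constant segment of IgG1, was looked at after its values were seen, with r = 0.95 and rho = 0.90 to Prg2. It had 0.743, 1.19 and 18.5 FPKM in HSAPN, 4.23, 27.0 and 11.8 FPKM in HAPN, 5.68 and 48.5 FPKM in HFD, and 0, 0.108 and 0.386 FPKM in WT. HSAPN replicate 3 and HFD replicate 3 were the highest of their groups for both genes, as was HAPN replicate 2. Ighg1 itself was not called: HFD minus WT was 3.98 ± 1.14 (SE, limma adjusted p = 0.300) and HAPN minus WT was 3.42 ± 1.02 (adjusted p = 0.135).

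**Figure D5:**
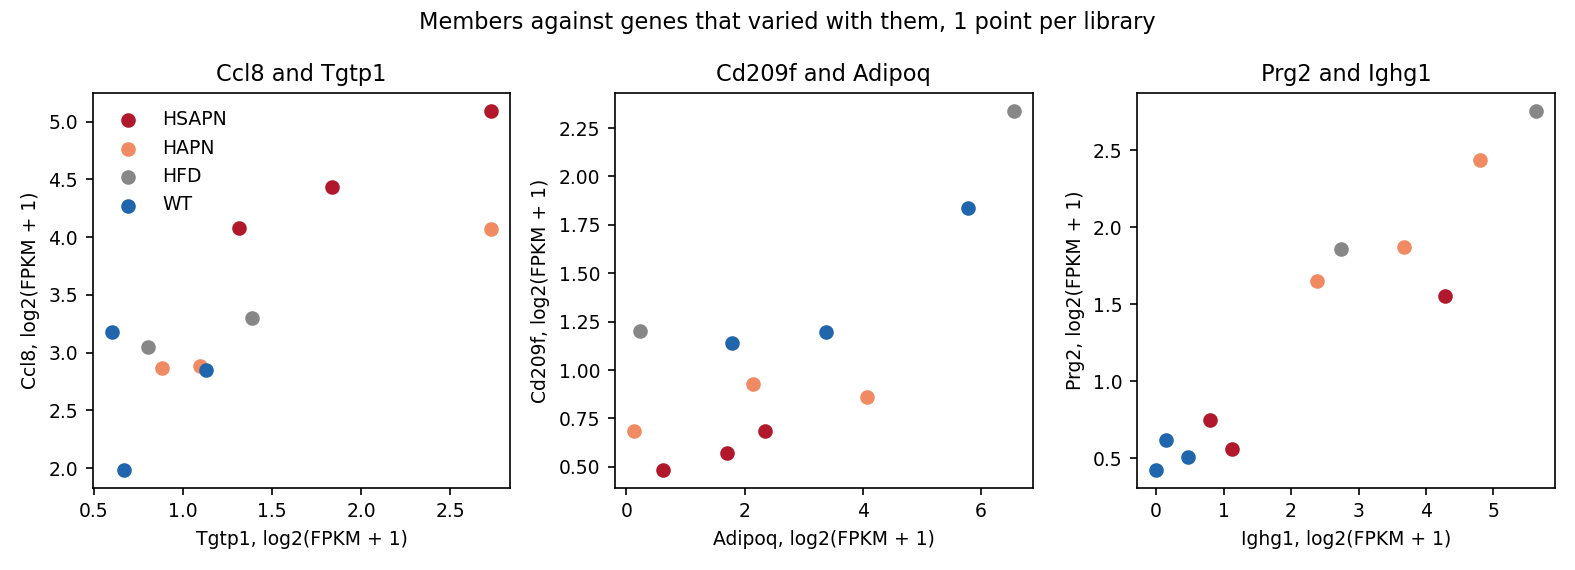
Log2(FPKM + 1) of Ccl8 against Tgtp1, Cd209f against Adipoq and Prg2 against Ighg1, with 1 point per library coloured by group (HSAPN, HAPN, HFD and WT). Prg2 and Ighg1 are both low in the 3 WT libraries (at most 0.534 and 0.386 FPKM). HFD replicate 3 has a Cd209f level (1.30 FPKM) above the median of all libraries (0.899 FPKM) at low Adipoq (0.174 FPKM).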

How the data were processed

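The series measured aorta mRNA in 12 samples, from TRIzol RNA and a directional NEBNext library per the labels. Each deposited file gives FPKM per gene symbol, as the authors made it. Of tools and builds, GRCm38, DESeq 1.8.3 and featureCounts 1.5.0-p3 appear, per the submitters' processing notes, without a stated use. Not given in the sources used here are the aligner, the annotation and whether counting used strand.

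The deposited FPKM values, multiplied by GENCODE M21 exonic lengths, gave 96.1 to 97.2% whole reads among values of up to 20 reads (tolerance 0.1), at 15610000 to 17840000 reads per library. A TPM scaling, which would change these totals and not the whole reads, cannot be told apart. The table holds 12.0 to 17.6% of those reads. Read intervals are exact Poisson at 95% and cover counting error only.

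A total of 1659 genes, those reaching 1 FPKM in 3 or more libraries, entered limma-trend (limma 3.58.1, R 4.3.3) on log2(FPKM + 1), with 4 group means, 11 libraries and a Benjamini-Hochberg threshold of 0.05. The test was checked on simulated data with normal noise, a capped spread and large planted changes. That check does not show how the test behaves on these libraries. Of 3532 symbols, 3407 matched GENCODE. The 4 genes and all lists were chosen with earlier results of these data known. Named beside them were the 5 eligible genes with the highest r to each and list genes in the table, of which not every one is reported here. The ratios to C1qb and Adgre1, and Ighg1 and Cxcl10, were chosen after values were seen. Alternatives were other pseudocounts (0.1 and 0.5), no filter or a stricter one (5 FPKM), limma-voom, median-ratio scaling, a replicate block and leaving out each library. Promoters are RefSeq's (GRCm38.p6); 3 of the 4 genes matched, and Prg2 did not. Python 3.11.15, pandas 2.3.3, NumPy 2.4.6, SciPy 1.17.1 and matplotlib 3.10.9 were used.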

Additional observations from a re-analysis of the deposited data

How the results depend on the processing

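Of 416 recomputed log2 differences of the 4 genes (28 differences under 14 to 16 alternatives each), 411 kept their sign. Many could not change, because leaving out libraries of a group outside a comparison, or adding the replicate block, leaves its difference as it was. The genes were also chosen on these values, so the count does not measure how robust the differences are. The 5 that turned were Ccl8 in HAPN minus HFD without the library of HFD replicates 1 and 2 or without HAPN replicate 3, Cd209f in HFD minus WT without the library of HFD replicates 1 and 2, Prg2 in HAPN minus HFD without HFD replicate 3, and Retnla in high-fat minus WT without WT replicate 1 (0.16, against −0.44 with all libraries). Median-ratio scaling moved the median log2 difference of all genes by 0.19 in HSAPN minus HFD, 0.14 in HSAPN minus WT, 0.23 in HAPN minus HFD and 0.17 in HAPN minus WT, and turned no sign of the 4 genes.

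Counts of all tested genes called by limma were small and unstable. For HSAPN against HAPN the count was 2, and 1 with no filter, 1 with limma-voom and 1 without the HFD libraries, an alternative added after the data were seen. For HSAPN against HFD it was 0, and 2 with no filter. For HAPN against HFD it was 3, and 5 with no filter, 0 with limma-voom and 5 with median-ratio scaling. For HAPN against WT it was 0, and 1 with no filter, 6 with the stricter filter and 17 with median-ratio scaling. For HFD against WT it was 0, and 2 with no filter. For high-fat against WT it was 1, and 0 with a pseudocount of 0.1 or 0.5, 3 with no filter, 0 with the stricter filter and 0 with median-ratio scaling. Leaving out each replicate in turn gave 0 to 3 for HSAPN against HAPN, 0 to 3 for HSAPN against HFD, 0 to 164 for HSAPN against WT, 0 to 6 for HAPN against HFD, 0 to 177 for HAPN against WT, 0 to 27 for HFD against WT and 0 to 240 for high-fat against WT. The highest counts against WT came without WT replicate 3, and the cause was not tested. At an unadjusted p under 0.05, 67, 360, 368 and 189 genes passed in HSAPN against HFD, HSAPN against WT, HAPN against WT and HFD against WT, where limma and limma-voom both called 0.

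Replicate numbers did not pair the samples: r of same-numbered deviations ran from −0.53 to 0.33, with 3 of 9 above 0.1, and 3 of 9 libraries correlated best with their own number. With the replicate block, fitted without the HFD libraries, the count was 0 for HSAPN against HAPN, 0 for HSAPN against WT and 1 for HAPN against WT. No paired analysis was possible for comparisons with HFD, because HFD has fewer than 2 replicate numbers of its own. Depth limits Cd209f (14 to 127 reads) and Prg2 (5 to 80 reads), where the narrow gaps between HSAPN and HAPN are not detectable. Groups of 2 or 3 libraries, a table whose rule for including genes is not stated and tissue mix limit the rest.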
